A study of Mus musculus with 2 samples.

Results

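The G1 cyclins, their kinases and the pocket proteins were followed as 10 genes, chosen by name: the D cyclins Ccnd1, Ccnd2 and Ccnd3, the kinases Cdk4 and Cdk6, the E cyclins Ccne1 and Ccne2, and the pocket proteins Rb1, Rbl1 and Rbl2. All 10 had a probe on the array, and together they were measured by 18 of 56598 gene probes. RNA from primary and from self-renewing macrophages, 1 culture of each, was hybridised to Agilent mouse arrays with 1 dye, 1 array per cell type. Both cultures were started from total bone marrow of C57BL/6 mice, labelled male, with no genetic change named, and both were kept in medium with 10% FCS and 100 ng/ml recombinant human M-CSF, the growth factor that drives macrophage development. The primary macrophages were the adherent cells at day 5. The self-renewing macrophages were collected after passage 4. Per the study's methods, division had by then ended in most of the culture, and the name self-renewing was given to the cells of the colonies that still grew, kept in bulk and not as clones unless a clone was named. The number of mice behind each culture is not given in the sources used here.

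These genes control the passage from G1 into S phase. D cyclins, which growth factors such as M-CSF induce, bind Cdk4 or Cdk6, and the complexes phosphorylate the pocket proteins, named after the pocket with which they hold E2F transcription factors. Released E2F switches on genes of DNA replication together with Ccne1, Ccne2 and Rbl1, and E cyclins with Cdk2 complete the phosphorylation. Rbl2 (p130) is best known from resting cells, Rbl1 (p107) from dividing cells, and Rb1 (pRB) from both.

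The signal of a probe is given as log2 of its background-corrected intensity relative to the 75th percentile of the gene probes on the same array, which was 434 on the primary and 446 on the self-renewing array. Differences are self-renewing minus primary macrophages on this log2 scale. With 1 array per cell type no test was possible, and every difference stands without a replicate check. Each difference is instead given with the error that the scanner software's error model assigns to the spots, written as ±. A second measure of error is the SD between probes of 1 gene, 0.32 log2 over 5077 genes with several probes. A change of 2-fold was used as the threshold. Of 15503 named genes with a difference, 739 (4.77%) were higher by 2-fold or more in the self-renewing macrophages and 1300 (8.39%) lower by as much, 13.2% in all. With the authors' own scaling of the arrays these counts were 1035 and 1069. The median over all these genes was -0.02 log2.

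The samples were compared with their labels first. All 10 markers of a macrophage list, among them Csf1r and Adgre1, were well above background on both arrays. Of these, 9 were higher in self-renewing macrophages, beside 47.9% of all named genes, Mertk most, at 2.23 log2. Fcgr1 was lower, at -1.76 log2. The summed signal of the list was 10.0 log2 in primary and 10.42 log2 in self-renewing macrophages. The label of male mice did not hold for both. In self-renewing macrophages 4 of 6 Y-linked genes stood well above background and Xist, the RNA that coats the silenced X of female cells, did not. In primary macrophages 0 of the 6 did, whereas Xist did. Differences between the cell types, between male and female cells and between donors can therefore not be told apart for any gene. This holds for the 10 G1 genes too. Of 9 neutrophil markers with a probe, 8 were well above background in primary and 3 in self-renewing macrophages, all 8 were lower in the latter, and the summed signal of the list was 6.70 log2 against 2.69 log2. Retnlg was above background on neither array, and Ly6g had no probe matched. Of 3 progenitor markers above background, Cd34 was lower at -2.75 log2, Kit passed the background flag in primary macrophages only, at -1.09 log2 or lower, and Meis1 was higher at 0.77 log2. Their summed signal, -0.11 against 0.18 log2, mainly followed Meis1, and their median was -1.09 log2. In most of the remaining lists 1 bright gene likewise made up most of the sum. The dendritic cell sum (7.60 against 7.69 log2) followed Siglech, while Ccr7, Flt3 and Cd209a passed the flag in primary macrophages only and the median was -0.41 log2. The B cell sum (0.95 against -1.80 log2) followed Cd79b, at -5.77 log2 or lower, while Pax5 was at -0.03 and Cd79a at 0.41 log2. The megakaryocyte sum (8.0 against 5.76 log2) followed Pf4, and that of basophils and mast cells (-2.72 against -4.25 log2) Hdc. The sums were 1.33 against 1.29 log2 for T and NK cells, 5.70 against 5.56 log2 for stromal cells, led by Acta2, and -1.03 against -1.24 log2 for erythroid cells, led by Klf1 and Epor. The part of other cell types in the results for the G1 genes was not tested. In such bulk RNA, fewer cells with a transcript and less transcript per cell cannot be told apart.

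All 10 G1 genes were well above background in primary macrophages and all but Ccne2 in self-renewing macrophages. In the self-renewing macrophages 6 of the 10 were lower and 4 higher at any size, beside 52.1% lower and 47.9% higher among all named genes. At 1.5-fold, 5 were lower and 2 higher, beside 15.1% and 10.9% of named genes and 26.0% in either direction. At 2-fold, 3 were lower, namely Ccnd2, Ccne1 and Ccne2, and 0 were higher, beside the 8.39% lower and 4.77% higher among all named genes. With the normexp background correction, a model-based one, 2 were lower, since Ccne2 was then at -0.44 log2. The median over the 10 genes was -0.67 log2. The differences of 8 genes were larger than the SD between probes of 1 gene, 0.32 log2, while those of Ccnd3 and Rb1 were smaller. Over all named genes the median size of a difference, whatever its sign, was close to that SD, at 0.30 log2. This SD does not measure variation between cultures, and 5 of the 10 genes had a single probe. All 5 genes with several probes had probes that pointed 1 way. For Ccnd3 and Rb1 these differences, at most 0.24 log2, were within or near the spot error of 0.20 log2. The share of all genes with several probes that point 1 way was not computed. The spread within families was wide: the 3 D cyclins ran from -3.33 to 0.65 log2 and the 3 pocket proteins from -0.96 to 0.69 log2.

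**Figure D1:**
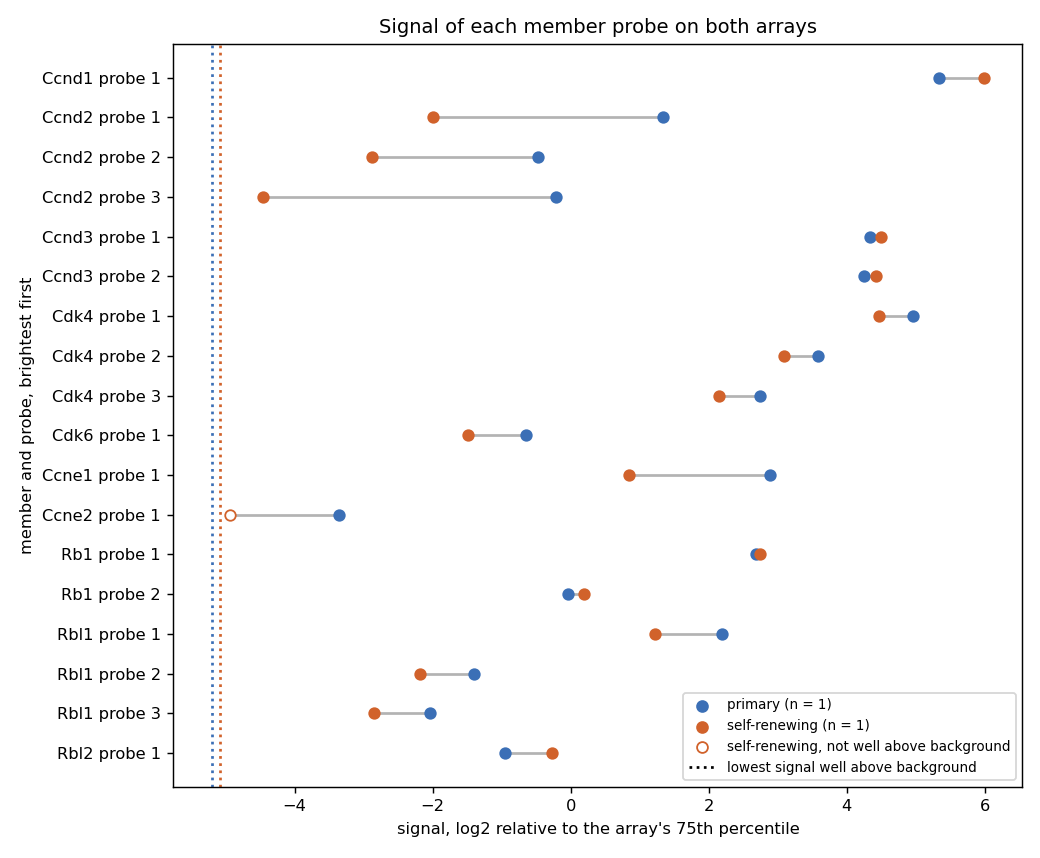
Signal of each of the 18 probes for the G1 genes in primary (blue) and self-renewing (orange) macrophages, 1 array each, on a log2 scale relative to the array's 75th percentile. Dotted lines mark the lowest signal well above background on each array, and the open circle is Ccne2, not well above background in self-renewing macrophages. The 3 Ccnd2 probes are joined by the longest lines, and both Ccnd3 probes and both Rb1 probes by the shortest.

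The D cyclins went different ways. Ccnd2, which M-CSF and other growth factors induce, had intensities of 1101 in primary and 112 in self-renewing macrophages for its brightest probe, which was 10.1-fold lower in the latter, at -3.33 ± 0.21 log2. Its second probe had intensities of 312 and 60.9, at -2.40 ± 0.22 log2. The third, matched to a predicted transcript, had intensities of 374 and 20.4, at -4.24 ± 0.29 log2. All 3 probes were thus well above background on both arrays and lower by more than 5-fold in self-renewing macrophages. They disagreed on the size, with an SD of 0.92 log2 between them, and the third was dim in self-renewing macrophages, 0.63 log2 over the array's lowest signal that passed the background flag. Only 1.87% of named genes differed by as much as Ccnd2 in either direction.

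Ccnd1, the D cyclin most often amplified in tumours, had an intensity of 17570 in primary and 28339 in self-renewing macrophages. It was 1.57-fold higher in the latter, at 0.65 ± 0.20 log2, by its only probe. This lay below 2-fold, and 23.0% of named genes differed by as much. Ccnd3, the third D cyclin, had intensities of 8756 and 10105 for 1 probe and 8254 and 9634 for the other. The differences were 0.17 ± 0.20 and 0.18 ± 0.20 log2, within the error of the spots. Ccnd1 and Ccnd2 thus differed from each other in their change by 3.98 log2.

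Both E cyclins, the partners of Cdk2, were lower in self-renewing macrophages. Ccne1 had an intensity of 3210 in primary and 805 in self-renewing macrophages, a 4.10-fold lower signal at -2.04 ± 0.20 log2, measured by 1 probe. The probe was far from background on both arrays, 8.09 and 5.94 log2 over the lowest signal that passed the background flag, and 4.86% of named genes differed by as much. Ccne2 was dim, with intensities of 42.5 and 14.5, and was well above background in primary macrophages only. With the scanner's background correction it was at least 3.01-fold lower in self-renewing macrophages, or -1.59 log2, which is the measured ratio of both dim signals, with a spot error of 0.37 log2 and with a primary signal 1.85 log2 over the lowest that passed the flag. With normexp the difference of Ccne2 was -0.44 log2, below 2-fold, so the size given for it holds for the scanner's correction only. Ccne1 stayed between -2.05 and -1.85 log2 under all 10 other ways of processing. Of these, the background filters and the mean over probes could not change Ccne1, which has 1 probe that passed on both arrays. The RefSeq promoter window of Ccne1 (GRCm38.p6, chr7:38107441-38107740, minus strand, 250 bases before to 50 bases after the annotated start) is shown because Ccne1 had the largest difference among the genes with a window. It is 76.0% G and C, all in lower case since it holds none of the motif words searched below.
Ccne1 promoter: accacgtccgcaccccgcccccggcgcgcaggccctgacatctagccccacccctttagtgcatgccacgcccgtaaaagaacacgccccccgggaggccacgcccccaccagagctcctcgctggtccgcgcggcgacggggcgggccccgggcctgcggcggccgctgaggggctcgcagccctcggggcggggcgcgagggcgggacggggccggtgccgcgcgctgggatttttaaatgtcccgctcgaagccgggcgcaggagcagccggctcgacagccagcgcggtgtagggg

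The kinases of the D cyclins were both lower, by less than 2-fold. Cdk4 had intensities of 13488 and 9866 for its brightest probe, 5217 and 3796 for the second and 2913 and 1986 for the third. The 3 probes gave -0.49, -0.50 and -0.59 log2, each ± 0.20, so that Cdk4 was 1.41-fold lower by its brightest probe, and the SD between them was 0.06 log2. Cdk4 was thus the most evenly measured of the genes with 3 probes. Cdk6, its close relative, had intensities of 277 and 159 by 1 probe and was 1.80-fold lower, at -0.85 ± 0.21 log2. The sizes of both fell among those of many other genes, since 31.8% of named genes differed by as much as Cdk4 and 16.5% by as much as Cdk6. The Cdk4 promoter window (GRCm38.p6, chr10:127063285-127063584, plus strand) is shown because it holds 4 copies of the E-box CACGTG, the word bound by Myc with Max, in capitals here.
Cdk4 promoter: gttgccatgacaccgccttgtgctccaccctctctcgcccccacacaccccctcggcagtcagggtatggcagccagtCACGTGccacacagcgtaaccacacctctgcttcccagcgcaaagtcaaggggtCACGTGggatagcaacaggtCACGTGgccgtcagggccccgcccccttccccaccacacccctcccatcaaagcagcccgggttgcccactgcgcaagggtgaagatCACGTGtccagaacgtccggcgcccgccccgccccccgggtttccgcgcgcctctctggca

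The pocket proteins spanned lower, near-equal and higher signals in self-renewing macrophages. Rb1, the retinoblastoma protein, had intensities of 2793 and 2984 for its brighter probe and 421 and 511 for the dimmer one. The differences were 0.05 ± 0.20 and 0.24 ± 0.20 log2, and 89.0% of named genes differed by as much as the brighter probe. Rbl1, itself an E2F target, had intensities of 1980 and 1045 for its brightest probe, which was 1.95-fold lower in self-renewing macrophages at -0.96 ± 0.20 log2. Its other probes had intensities of 165 and 97.9 and of 105 and 62.1, and gave -0.79 ± 0.21 and -0.80 ± 0.22 log2. All 3 Rbl1 probes were lower by less than 2-fold, the brightest just inside that threshold and the others at 1.73-fold and 1.74-fold, with an SD of 0.10 log2 between them. Rbl2 went the other way, with intensities of 223 and 370 by 1 probe, 1.61-fold higher in self-renewing macrophages at 0.69 ± 0.20 log2. The changes of Rbl2 and Rbl1 lay 1.65 log2 apart. The Rbl1 promoter window (GRCm38.p6, chr2:157204485-157204784, minus strand) is shown because it holds an E2F word, in capitals, from position -18 to -11 relative to the annotated start.
Rbl1 promoter: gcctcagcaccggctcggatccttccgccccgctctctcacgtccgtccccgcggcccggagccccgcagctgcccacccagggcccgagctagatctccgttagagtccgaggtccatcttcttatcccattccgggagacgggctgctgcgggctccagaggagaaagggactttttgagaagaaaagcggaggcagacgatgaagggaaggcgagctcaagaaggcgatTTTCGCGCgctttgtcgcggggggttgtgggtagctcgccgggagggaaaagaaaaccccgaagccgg

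Promoter windows of 300 bases were at hand for 6 of the 10 genes, Ccnd3 with a pair of starts, and not for Ccnd1, Ccnd2, Ccne2 and Rb1. They were searched on both strands for the E2F words TTTCCCGC, TTTCGCGC, TTTGCCGC and TTTGGCGC, for the E-box CACGTG and for the AP-1 word TGACTCA, none of which lies inside another. An E2F word was found in 1 of the 6 genes, Rbl1, beside 2.26% of the 32851 windows searched and 8 of 17 genes on a list of S phase E2F targets. The windows searched left out those of chr18 and those not 300 bases long. The E-box was found in Cdk4, at positions -172, -118, -98 and -11, and in Cdk6 at -220, beside 7.15% of the windows searched. The AP-1 word was in 0 of the 6 genes and in 5.20% of the windows searched. These matches describe the letters of these windows only.

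**Figure D2:**
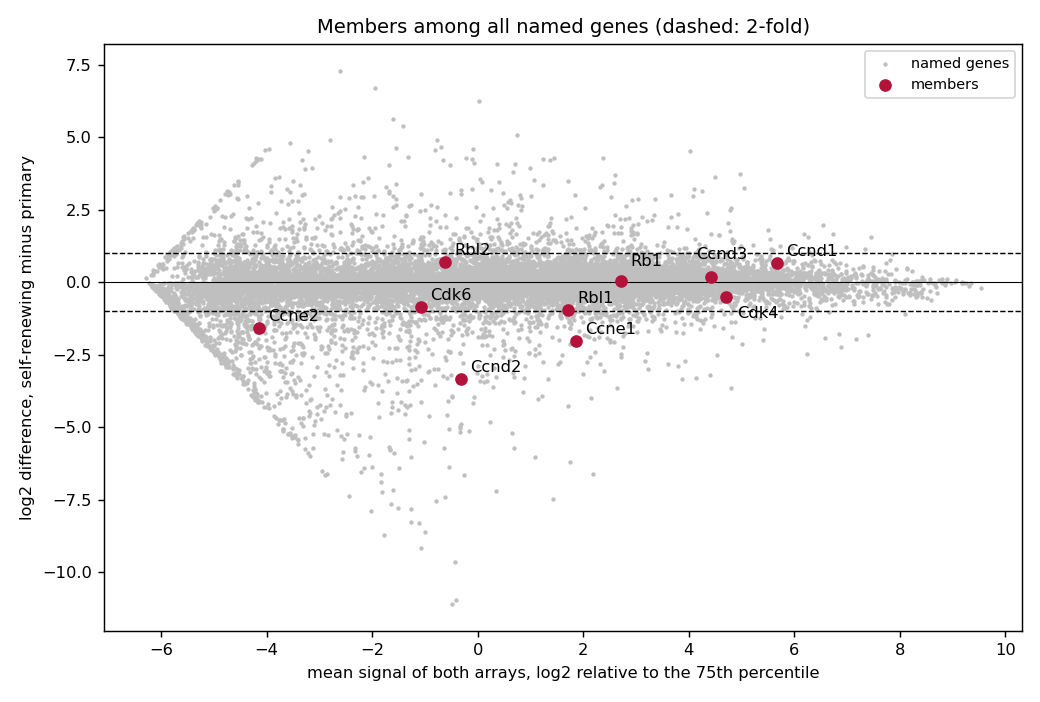
Difference between self-renewing and primary macrophages (log2) against the mean signal of both arrays (log2 relative to the 75th percentile) for named genes (grey) and the 10 G1 genes (red), 1 array per cell type, with dashed lines at 2-fold. Ccnd2, Ccne1 and Ccne2 lie below the lower line, Rbl1 just inside it, and Ccnd1 and Rbl2 stand highest of the 10 at 0.65 and 0.69 log2.

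The direct partners and regulators of these genes were read beside them, by counts and medians. Cdk2, the kinase of the E cyclins, was 1.57-fold lower in self-renewing macrophages, at -0.65 log2. Ccna2, its later cyclin, gave -0.72 log2 by its brighter probe and -1.02 log2, past 2-fold, by another. Over 11 partners and activators of the G1 kinases the median was -0.62 log2, with 8 genes lower, beside 52.1% of all named genes. At 2-fold, where 8.39% of all named genes were lower, only Wee1, a kinase that restrains cyclin-dependent kinases, was called by its brightest probe, at -1.01 log2. This call was lost with normexp, spike-in scaling and the authors' scaling, where Wee1 was at -0.95, -0.89 and -0.82 log2. Among 7 inhibitors of these kinases, values spread far more. Cdkn2b and Cdkn2a, which encode inhibitors of Cdk4 and Cdk6, were higher in self-renewing macrophages, at 5.07 and 3.94 log2. Which Cdkn2a transcripts its probes detect was not examined. Cdkn1a and Cdkn1c, which inhibit several cyclin-dependent kinases, were lower, at -6.02 and -3.34 log2, and another Cdkn1a probe gave -4.30 log2. Cdkn1b (p27) and Cdkn2c (p18) gave 0.36 and 0.30 log2.

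Downstream of the pocket proteins, 9 of 10 E2F factors and dimer partners were lower, beside 52.1% of all named genes, with a median of -0.83 log2. E2f5, named after its value was seen, was at 0.00094 log2. E2f1 was at -0.90 log2. Of the 10, E2f7 and E2f8, which repress E2F targets, passed 2-fold at -1.38 and -1.21 log2, beside 8.39% of all named genes. However, a second E2f7 probe gave only -0.37 log2, and the mean over E2f7 probes, at -0.88 log2, was below 2-fold. Of 20 S phase genes known as E2F targets, 14 were at least 2-fold lower and 0 at least 2-fold higher, beside 8.39% and 4.77% of all named genes. At any size 19 of the 20 were lower, beside 52.1%, with a median of -1.23 log2. Orc1 at -2.02, Pcna at -1.52, Gins1 at -1.45, Rrm2 at -1.43, Mcm4 at -1.38 and Pola1 at -1.36 log2 led them, all parts of DNA replication or nucleotide supply. Ung, a DNA repair enzyme singled out after its value was seen, was the 1 gene that was higher, at 0.35 log2. Ccne1, Ccne2 and Rbl1, named above as E2F targets, lay at -2.04, -1.59 and -0.96 log2, beside a median of -1.23 log2 for the S phase genes. Ccne2 passed the background flag in primary macrophages only and was at -0.44 log2 with normexp. A shared cause was not tested. A list of 8 genes held the MuvB and DREAM complexes, with which Rbl1 and Rbl2 silence cell cycle genes, and their B-MYB and FOXM1 partners. Of these 8, 6 were lower, beside 52.1% of all named genes, with a median of -0.37 log2. Mybl2, which encodes B-MYB, was the 1 gene of the 8 at 2-fold, at -1.67 log2, beside 13.2% of all named genes in either direction.

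Upstream of the D cyclins and in their turnover, medians were small. Single genes ran from -1.28 to 0.84 log2 upstream and from -0.47 to 1.01 log2 in turnover. Of 16 transcription factors that act on D cyclin genes, 8 were higher and 8 lower, beside 47.9% and 52.1% of all named genes. Their median was 0.03 log2. Myc was at -0.55 log2. Ets1 passed 2-fold, beside 8.39% of all named genes lower by as much, at -1.28 log2 by its brighter probe and -2.26 log2 by another. With normexp Ets1 did not pass, at -0.59 log2. Fosl1 passed the background flag in primary macrophages only and has a bound, at -0.83 log2 or lower, so that a 2-fold difference is possible. Of 14 genes of cyclin turnover, 9 were higher, beside 47.9% of all named genes, with a median of 0.15 log2. Skp2, which marks several G1 regulators for degradation, was at -0.47 log2. Btrc reached 2-fold, beside 4.77% of all named genes higher by as much, at 1.01 log2 by 1 probe while another gave 0.07 log2. The Btrc call was lost with normexp, with the mean over probes and with both scalings on probes well above background, at 0.54 to 0.99 log2. Over 10 proteins that bind or dephosphorylate pocket proteins, 0 passed 2-fold, beside 13.2% of all named genes, and 1 did with quantile normalization. Their median was -0.02 log2, which turned positive, at 0.03, 0.10 and 0.17 log2, with quantile normalization, spike-in scaling and the authors' scaling.

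**Figure D3:**
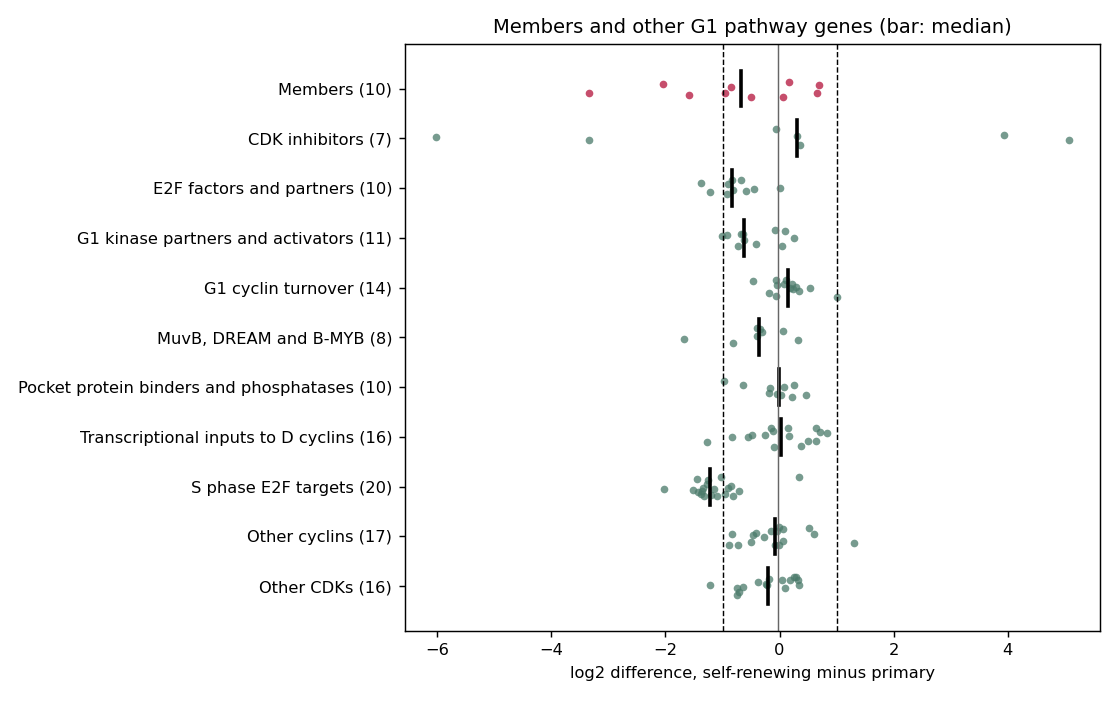
Difference between self-renewing and primary macrophages (log2) for the 10 G1 genes (red) and for each list of pathway genes (green), with the number well above background on at least 1 array in parentheses. Each point is a gene, bars are medians, dashed lines mark 2-fold and the thin line the median of all named genes at -0.02 log2. The S phase genes lie lowest as a group, and the CDK inhibitors spread from -6.02 to 5.07 log2.

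The signs of all 10 differences were the same under 10 other ways of processing, except that Ccne2 had no value when only probes well above background on both arrays were kept. Not all of these ways could change a value. Dropping the background filter changed none of the 10, and requiring both arrays changed none of those that kept a value. The mean over probes cannot change the 5 genes with a single probe, and keeping outlier spots hardly moved any gene. The value of Ccne2 depended most on the background correction, since normexp as run here adds an offset of 50 to each signal and so draws dim signals together, and Ccnd2 was at -2.79 log2 with it. With the authors' scaled values, which place all probes 0.19 log2 further towards the self-renewing macrophages, Ccnd1 and Rbl2 were at 0.84 and 0.88 log2, still below 2-fold.

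**Figure D4:**
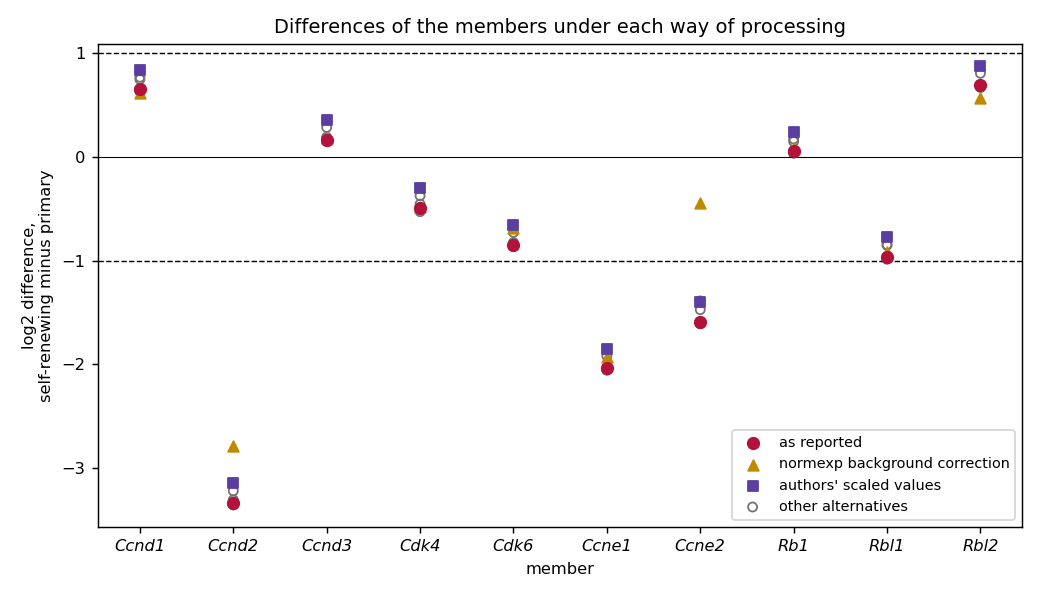
Difference between self-renewing and primary macrophages (log2) for each of the 10 G1 genes as reported (red circle) and under each alternative (other symbols), with dashed lines at 2-fold. Every gene keeps its side of 0, and only Ccne2 crosses a 2-fold line, at -0.44 log2 with the normexp background correction.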

How the data were processed

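Total RNA of 1 culture of each cell type was labelled with Cy3 and hybridised to SurePrint G3 mouse arrays on 1 slide. The authors deposited scanner output of Feature Extraction 11.5.1.1, in which intensity values are background-corrected within the array, with flags for spots well above background and for outliers, and a table of those intensity values times 1 constant per array (1.07 and 1.19). How the constants were set is not given in the sources used here.

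From these values log2 of the processed signal was taken less each array's 75th percentile, leaving out 63 outlier gene spots per array and averaging the spots of each probe. Probes were named by accession through a RefSeq table of GRCm38.p6, which matched 32988 of 56598 probes (58.3%) and 22910 genes. The array design uses an earlier build (mm9), so gene coordinates are not given. A gene is represented by its brightest probe. For a gene that passed the background flag on a single array the difference is a bound, taken against its own signal on the other array or, if higher, the lowest signal that passed the flag there. No test was made. No spot was saturated (0 spots). Promoter windows are those of RefSeq on GRCm38.p6. The genes and lists were chosen with earlier results of these data known. All 10 genes are named, and from each list those at least 2-fold different, at most 6, and Fosl1 after its value was seen, with 10 partners and regulators named whatever their value. Other ways of processing were normexp on the median spot signal (offset 50), other scalings, other filters, the mean over probes, outliers kept and a threshold of 1.5-fold. The steps were tested on simulated data. Tools were limma 3.58.1 in R 4.3.3, and pandas 2.3.3 and numpy 2.4.6 in Python 3.11.15.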

Additional observations from a re-analysis of the deposited data

How the results depend on the processing

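A difference or median was taken as moved when it shifted by more than the SD between probes of 1 gene (0.32 log2), divided for a median by the square root of the number of genes. A count was taken as moved when it changed by more than 1.5-fold. With the normexp background correction Ccnd2 was at -2.79 log2, Ccne2 at -0.44 log2, below 2-fold, and the median of the 10 genes at -0.46 log2, and at 2-fold 429 named genes were higher and 750 lower. Without the background filter the counts were 1192 higher and 2336 lower, and with only probes well above background on both arrays 782 were lower. The median of the 10 genes was then -0.49 log2, without Ccne2, and that of the inputs to D cyclins 0.16 log2. With the mean over probes that of the other kinases was -0.0066 log2.

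Scaling moved the medians together, by construction. With spike-in probes as the centre, the median of all genes was 0.10 log2 and that of the 10 genes -0.55 log2, and the lists were at -0.71 (E2F factors), -0.50 (kinase partners), 0.26 (turnover), -0.25 (MuvB), 0.10 (pocket protein binders), 0.15 (inputs to D cyclins), -1.11 (S phase), 0.040 (other cyclins) and -0.086 log2 (other kinases). With the authors' scaled values all genes had a median of 0.17 log2 and the 10 genes -0.48 log2, and the lists were at 0.49 (CDK inhibitors), -0.64 (E2F factors), -0.43 (kinase partners), 0.34 (turnover), -0.18 (MuvB), 0.17 (pocket protein binders), 0.22 (inputs to D cyclins), -1.04 (S phase), 0.11 (other cyclins) and -0.015 log2 (other kinases). At 1.5-fold, 2 of the 10 genes were higher and 5 lower, where 10.9% and 15.1% of all named genes were. No paired analysis was possible because there is a single array of either cell type. Signal over background limits Ccne2 and the third Ccnd2 probe most. Of the 20 S phase genes, 13 were at least 2-fold lower with quantile normalization, 12 with spike-in scaling and 11 with the authors' scaling, where 14 were as reported.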

Other observations

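Beyond the G1 cyclins, 17 of 19 other cyclins passed the background flag in either cell type, beside 15516 of 22910 named genes. Of the 17 cyclins, 1 differed by 2-fold, beside 13.2% of all named genes. Ccng1, a p53 target, was higher in self-renewing than in primary macrophages, by 2.47-fold. The mitotic cyclins Ccnb1 and Ccnb2 gave -0.50 and -0.46 log2 and Ccnf, which takes part in protein degradation in G2 phase, -0.89 log2. The median of the 17 was -0.08 log2, and 0.04 and 0.11 log2 with spike-in scaling and the authors' scaling. Ccno passed the background flag in primary macrophages only and has a bound, at -0.82 log2 or lower, so its place among the cyclins is unknown. Ccne1, at -2.04 log2, was lower than each of the 16 that passed on both arrays.

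Among 16 other cyclin-dependent kinases the median was -0.20 log2, and Cdk20 alone passed 2-fold, at -1.22 log2, beside 13.2% of all named genes. Cdk1, the mitotic kinase, was at -0.75 log2, close to Cdk2 at -0.65 and Cdk6 at -0.85 log2. The transcriptional kinases Cdk7 and Cdk9 were at 0.04 and 0.18 log2. Ccna1 and Ccnjl were well above background on neither array. Ccnb1, Ccnb2, Ccnf, Ccno, Cdk1, Cdk7, Cdk9, Ccna1 and Ccnjl were named after their values were seen.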
